A study of Homo sapiens with 12 samples.

Results

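The 34 genes described here encode enzymes of cholesterol and fatty acid synthesis, the SREBP transcription factors that drive these pathways, the proteins that hold or cut SREBPs, and a pair of sterol transport proteins. They were listed by name from knowledge of the pathways, but with earlier results of these data known. Each was read through the Affymetrix probe set with the highest mean over the 12 arrays among those annotated to that gene alone. Of the 34 genes, 31 had such a probe set, and all 31 passed the filter on low values and were tested among 13225 genes. FDFT1, CYP51A1 and FADS1 were not analysed here. The probe sets that name CYP51A1 and FADS1 carry several gene symbols.

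RNA came from MDA-MB-231, an established human line of triple-negative breast cancer cells. Cells sparsely seeded in serum-containing medium received YAP/TAZ siRNA mix 1, YAP/TAZ siRNA mix 2 or control siRNA, each at a final concentration of 33 nM on day 2. All cultures had their medium renewed on day 3 and were harvested on day 4. Small interfering RNAs (siRNAs) destroy the messenger RNA they pair with, and both mixes were directed at YAP and TAZ, the transcriptional co-activators of the Hippo pathway encoded by YAP1 and WWTR1. Each of the 3 groups had 4 cultures, lettered A to D, which the series text calls independent and handled side by side. All were of this 1 cell line. The 4 control arrays served as reference for both mixes, so the comparisons of mix 1 and of mix 2 with control share them.

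Cholesterol is built from acetyl-CoA through the mevalonate pathway, squalene and lanosterol, and fatty acids are built from the same precursor through malonyl-CoA. SREBP proteins are held in the endoplasmic reticulum with SCAP and INSIG proteins when sterols are plentiful. When sterols run low they move to the Golgi, where the proteases encoded by MBTPS1 and MBTPS2 release the part that enters the nucleus and activates genes of both pathways.

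All values are log2 levels from the deposited table, in which a difference of 1 is a 2-fold change. Errors of differences are standard errors (SE) of the limma fit. A gene was called at a Benjamini-Hochberg adjusted p below 0.05. YAP1 averaged 8.15 ± 0.36 with mix 1, 8.09 ± 0.10 with mix 2 and 11.16 ± 0.10 with control siRNA. WWTR1 averaged 9.06 ± 0.22, 8.95 ± 0.12 and 11.40 ± 0.10 in the same groups (SD, n = 4 each). The targeted messenger RNAs were thus at 12.4% and 11.9% of control for YAP1 and 19.8% and 18.3% for WWTR1, with no overlap between either mix and control. Replicate arrays of a group correlated at 0.993 to 0.998, and array medians lay between 5.69 and 5.78. All 6 markers of this cell line were well expressed (VIM averaged 14.41, 14.37 and 14.29 with mix 1, mix 2 and control siRNA). The mean of the 6 log2 levels was 12.72 to 12.84 with mix 1, 12.97 to 13.00 with mix 2 and 13.07 to 13.12 with control siRNA. With mix 1, 1 of the 6 rose and 4 fell (16.7% and 66.7%, against 34.8% and 32.3% of all genes). With mix 2, 0 rose and 2 fell (33.3% lower, against 31.9%). AXL averaged 12.13, 12.83 and 13.24 in the 3 groups. Of 6 luminal and hormone receptor markers, ESR1, ERBB2 and GATA3 passed the filter, and PGR, FOXA1 and CDH1 were below it. All 10 cell division genes listed were lower under each mix. The mean of their log2 levels was 9.47 to 9.55 on mix 1 arrays, 8.78 to 8.99 on mix 2 arrays and 11.33 to 11.38 on control arrays. Of 8 adipocyte markers, 4 passed the filter, with ADIPOQ, LEP, FABP4 and CIDEA below it. The mean of the 8 log2 levels was 5.69 to 5.89 with mix 1, 5.83 to 6.01 with mix 2 and 5.49 to 5.69 with control siRNA. The summed linear level of the 8 was 1200 to 1440, 1460 to 1630 and 993 to 1030 in the same groups. Of 6 leukocyte markers measured, 5 passed the filter with PTPRC below it, and the summed linear level of the 6 was 761 to 956 with mix 1, 806 to 954 with mix 2 and 268 to 299 with control siRNA. Of the 5 tested, 2 rose with each mix, LYZ and CD14, and 0 fell (40% higher, against 34.8% and 36.7% of all genes). LYZ averaged 9.14 ± 0.25, 9.18 ± 0.15 and 4.96 ± 0.30 in these groups, and CD14 6.26 ± 0.11, 6.39 ± 0.19 and 5.15 ± 0.26. With control siRNA both were below the filter's level of 5.46. CD3E averaged 6.08, 6.06 and 6.17, CD79A 6.16, 6.08 and 6.17, and ITGAM 5.64, 5.47 and 5.66. Of 8 fibroblast and endothelial markers, 4 passed with COL1A2, DCN, CDH5 and KDR below the filter, and the summed level of the 8 was 1200 to 1420 with mix 1, 846 to 921 with mix 2 and 428 to 487 with control siRNA. Of the 4 tested, COL1A1, PECAM1 and PDGFRB rose with each mix and 0 fell (75% higher, against 34.8% and 36.7% of all genes). COL1A1 averaged 9.34 ± 0.25, 8.52 ± 0.10 and 7.04 ± 0.30, and PECAM1 8.62 ± 0.10, 7.88 ± 0.10 and 6.54 ± 0.17. VWF averaged 5.52, 5.60 and 5.57. Below the filter, KDR averaged 4.56, 5.30 and 5.30, and COL1A2 4.47, 4.79 and 4.77. DCN averaged 5.38, 5.53 and 5.46, and CDH5 3.92, 3.93 and 3.97. Of 8 hepatocyte markers 1 passed, and the summed level of the 8 was 259 to 319, 258 to 311 and 244 to 285. The part of these marker levels and of cell division in the values below was not tested. In bulk RNA, fewer cells of one state and less RNA per cell cannot be told apart.

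Upstream sequences are shown for TM7SF2, HMGCS1, SCD and TMEM97, which were called in the same direction under both mixes with large differences, and for the regulators INSIG1, SREBF1 and SREBF2, so that the letters read by SREBPs and their partner NF-Y can be seen beside the values. Each is the 250 bases before the annotated start, 5′ to 3′ on the gene's strand, from the RefSeq promoter table of build GRCh38.p14. For HMGCS1, the more upstream of its windows is shown. Capitals mark CCAAT, the NF-Y box, on either strand (ATTGG when reversed) and TCACNCNAC, a loosened sterol regulatory element that includes the stricter TCACNCCAC.
TM7SF2, chr11:65111622-65111871, plus strand: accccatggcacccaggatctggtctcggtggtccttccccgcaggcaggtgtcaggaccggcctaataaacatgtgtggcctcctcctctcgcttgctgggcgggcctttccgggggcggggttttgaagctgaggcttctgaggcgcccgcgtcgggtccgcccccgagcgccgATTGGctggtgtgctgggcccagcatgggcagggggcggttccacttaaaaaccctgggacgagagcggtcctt
HMGCS1, chr5:43313413-43313662, minus strand: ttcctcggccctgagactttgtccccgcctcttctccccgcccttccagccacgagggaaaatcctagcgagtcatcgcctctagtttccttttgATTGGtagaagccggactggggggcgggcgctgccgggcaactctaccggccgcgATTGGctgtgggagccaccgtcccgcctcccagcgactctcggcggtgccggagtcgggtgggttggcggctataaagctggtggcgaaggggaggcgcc
SCD, chr10:100346983-100347232, plus strand: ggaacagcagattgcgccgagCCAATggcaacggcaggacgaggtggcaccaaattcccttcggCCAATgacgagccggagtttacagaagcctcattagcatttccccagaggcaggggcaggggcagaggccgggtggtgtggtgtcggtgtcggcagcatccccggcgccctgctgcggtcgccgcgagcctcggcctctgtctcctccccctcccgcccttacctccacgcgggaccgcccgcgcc
TMEM97, chr17:28318950-28319199, plus strand: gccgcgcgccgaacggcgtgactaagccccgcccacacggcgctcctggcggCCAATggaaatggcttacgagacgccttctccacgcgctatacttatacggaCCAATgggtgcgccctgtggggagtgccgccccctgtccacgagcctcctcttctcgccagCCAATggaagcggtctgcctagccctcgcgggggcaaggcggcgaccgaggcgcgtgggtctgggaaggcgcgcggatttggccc
INSIG1, chr7:155297628-155297877, plus strand: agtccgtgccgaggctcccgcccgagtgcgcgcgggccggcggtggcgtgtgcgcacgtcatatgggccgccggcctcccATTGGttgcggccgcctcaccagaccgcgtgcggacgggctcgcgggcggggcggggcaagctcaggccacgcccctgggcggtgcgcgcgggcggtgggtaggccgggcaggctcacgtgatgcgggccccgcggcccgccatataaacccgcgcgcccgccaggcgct
SREBF1, chr17:17836987-17837236, minus strand: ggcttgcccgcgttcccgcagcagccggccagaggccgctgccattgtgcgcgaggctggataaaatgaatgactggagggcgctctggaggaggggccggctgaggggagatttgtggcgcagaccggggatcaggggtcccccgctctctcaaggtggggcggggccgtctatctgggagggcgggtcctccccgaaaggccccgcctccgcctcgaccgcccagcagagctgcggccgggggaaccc
SREBF2, chr22:41832855-41833104, plus strand: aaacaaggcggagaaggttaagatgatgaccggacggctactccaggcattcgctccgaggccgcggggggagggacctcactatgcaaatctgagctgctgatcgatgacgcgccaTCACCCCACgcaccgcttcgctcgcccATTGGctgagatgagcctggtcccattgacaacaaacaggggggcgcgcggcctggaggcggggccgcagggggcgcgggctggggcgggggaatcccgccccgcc
Counting back from the start, CCAAT or its reverse began at -74 in TM7SF2, at -155 and -100 in HMGCS1, at -229 and -186 in SCD and at -198, -146 and -85 in TMEM97. INSIG1 held it at -170 and SREBF2 at -106, and the SREBF1 window held neither motif. SREBF2 alone of these 7 held the sterol element as marked here, TCACNCNAC, at -133. The E-box CACGTG, which is not marked, began at -55 in INSIG1.

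Motifs were searched on both strands of the full windows, from 250 bases before to 50 after the start. Members on 1 chromosome were left out of this search by rule. For the other members, the table held 40 windows of 30 genes. CCAAT occurred in 25 of the 40 member windows (62.5%), against 34.6% of 35116 windows in the table. TCACNCCAC occurred in 1 of the 40 (2.5%, against 1.13%) and TCACNCNAC in 4 (10%, against 2.55%), in FADS2, FDPS, HSD17B7 and SREBF2. The GC-rich letters GGGCGG, read by Sp1, occurred in 34 (85%, against 45%). GGAATG, the core read by TEAD factors, the DNA-binding partners of YAP and TAZ, occurred in 5 (12.5%, against 14%), and the E-box CACGTG in 5 (12.5%, against 7.26%). Windows of 1 gene can overlap. The matches describe letters, not binding.

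With mix 1, 19 of the 31 members rose and 5 fell against control. These were 61.3% and 16.1% of members, and 34.8% and 32.3% of all genes tested passed in those directions. With mix 2, 14 rose and 7 fell, or 45.2% and 22.6%, and the shares over all genes were 36.7% and 31.9%. The members' median log2 difference was 0.29 with mix 1 and 0.12 with mix 2, and the median over all genes was 0.00 and 0.03. Differences of at least 2-fold were reached by 4 higher and 2 lower members with mix 1 (19.4%, against 16.4% of all genes). With mix 2, 3 higher and 2 lower members reached that size (16.1%, against 18.4%). Both shares were near the background. The arrays of mix 1 and control did not overlap for 20 members (64.5%, against 63.3% of all genes). Neither did those of mix 2 and control for 19 (61.3%, against 64.8%), which was again near the background. The members thus leaned upward in count with mix 1, while their share of large or fully separated differences was like that of the other genes.

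**Figure D1:**
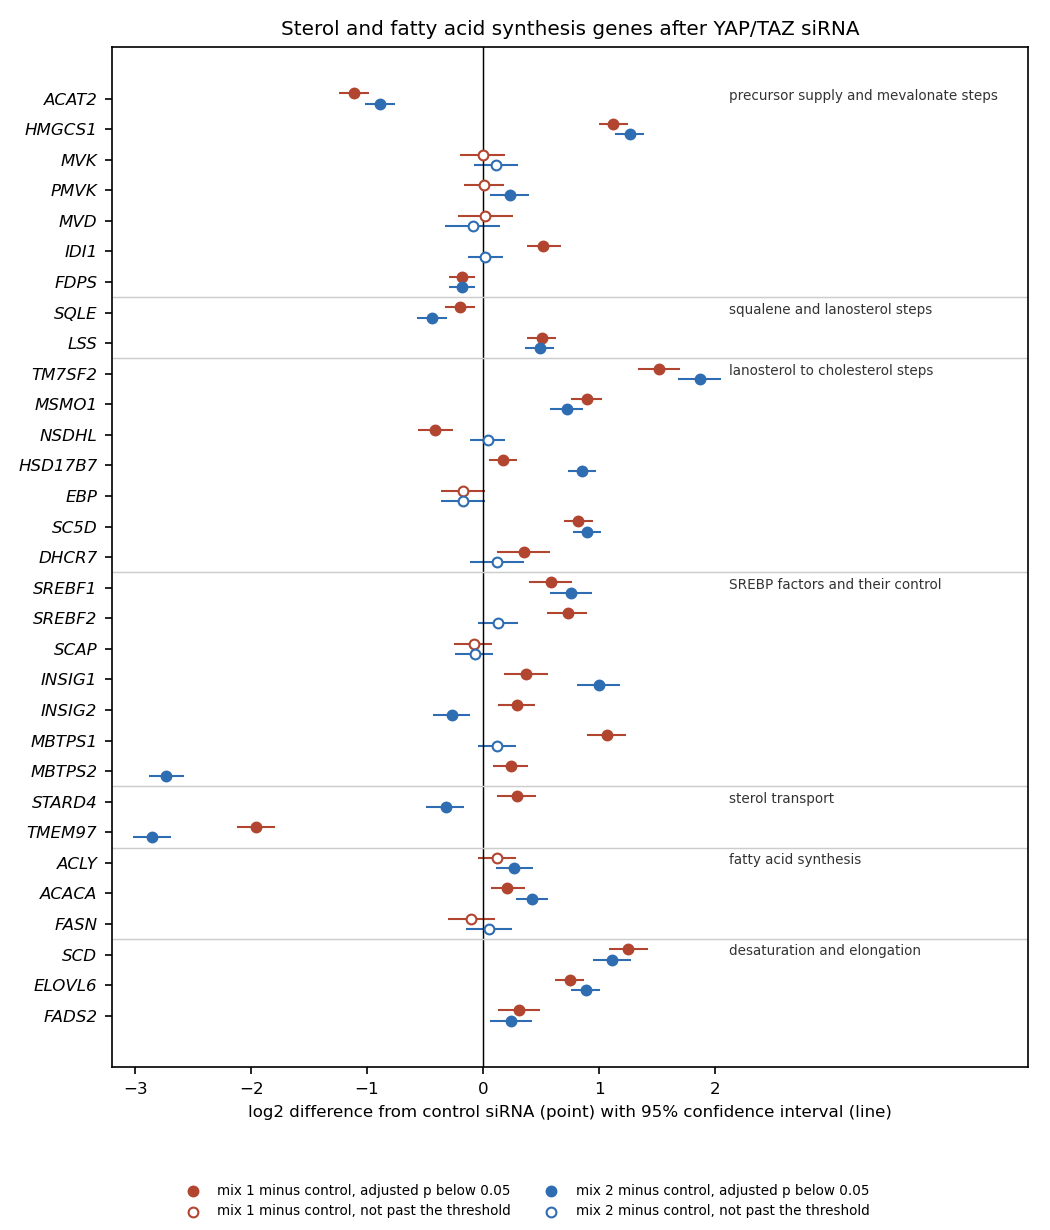
Log2 difference from control siRNA (horizontal axis) with its 95% confidence interval for the 31 members tested, ordered by pathway step, with mix 1 drawn above mix 2 for each gene; filled points passed an adjusted p of 0.05. TMEM97 is far to the left under both mixes, MBTPS2 far to the left under mix 2, and TM7SF2, SCD and HMGCS1 lie farthest to the right.

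Among the 7 genes of precursor supply and the mevalonate steps, 2 rose and 2 fell with mix 1, and the counts were the same with mix 2 (28.6% in each direction, near the background). HMGCS1, the synthase that makes HMG-CoA, measured 9.41, 9.42, 9.27 and 9.40 on the mix 1 arrays, 9.54, 9.48, 9.46 and 9.60 on the mix 2 arrays, and 8.34, 8.27, 8.19 and 8.21 on the control arrays. Every knockdown array lay above every control array. HMGCS1 rose by 1.12 ± 0.06 (SE) with mix 1 (2.18-fold, adjusted p = 3.33e-10) and by 1.27 ± 0.06 with mix 2 (2.41-fold, adjusted p = 7.46e-11). ACAT2, the cytosolic thiolase that makes acetoacetyl-CoA one step before HMGCS1, moved the other way. It measured 10.10, 9.88, 9.93 and 10.08 with mix 1, 10.28, 10.26, 10.17 and 10.16 with mix 2, and 11.09, 11.15, 11.10 and 11.10 with control siRNA. All knockdown arrays were below all control arrays, at 46.2% of control with mix 1 (-1.11 ± 0.06, adjusted p = 5.89e-10) and 53.9% with mix 2 (-0.89 ± 0.06, adjusted p = 5.93e-09). Adjacent steps of the pathway therefore differed in direction.

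The kinases and the decarboxylase that turn mevalonate into isopentenyl diphosphate differed little. MVK, mevalonate kinase, ranged over 8.31 to 8.51 with mix 1, 8.43 to 8.87 with mix 2 and 8.36 to 8.53 with control siRNA, and MVD, the decarboxylase, over 5.76 to 6.23, 5.66 to 6.12 and 5.92 to 6.07. Neither was called under either mix. The 95% interval of the MVK difference was -0.20 to 0.19 with mix 1 and -0.08 to 0.30 with mix 2. That of MVD was -0.22 to 0.26 and -0.33 to 0.15. PMVK, phosphomevalonate kinase, measured 9.29, 9.16, 9.43 and 9.33 with mix 1, 9.56, 9.51, 9.69 and 9.34 with mix 2, and 9.20, 9.28, 9.40 and 9.29 with control siRNA. Its mix 1 difference was 0.01 ± 0.08 (adjusted p = 0.924), and its mix 2 difference was 0.23 ± 0.08 (adjusted p = 0.0176) with overlapping arrays. The PMVK call was lost without control array A (adjusted p = 0.0562) or without mix 2 array C (0.0656), within a range of 0.003 to 0.0656 over all alternatives.

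FDPS, the farnesyl diphosphate synthase, measured 11.26, 11.28, 11.34 and 11.34 with mix 1, 11.33, 11.36, 11.33 and 11.20 with mix 2, and 11.49, 11.50, 11.48 and 11.48 with control siRNA. Its controls were tight and the difference small, at -0.18 ± 0.05 with mix 1 (adjusted p = 0.00604) and -0.18 ± 0.05 with mix 2 (adjusted p = 0.00589), or 88.1% of control for each. IDI1, the isomerase of isopentenyl diphosphate, measured 11.23, 11.15, 11.32 and 11.36 with mix 1, 10.86, 10.83, 10.72 and 10.64 with mix 2, and 10.66, 10.70, 10.78 and 10.83 with control siRNA. The mix 1 arrays stood above the others, by 0.52 ± 0.07 over control (adjusted p = 7.57e-06), and mix 2 differed from control by 0.02 ± 0.07 (adjusted p = 0.817). The IDI1 direction depended on the probe set: the brightest and the next gave 0.52 and 0.53 with mix 1, while the third gave -0.35 ± 0.09 and the dimmest gave -0.19 ± 0.13. With probe sets that may bind related transcripts left out, the dimmest stood for IDI1 and its adjusted p was 0.22. With the mean of its probe sets the difference was 0.13 (adjusted p = 0.067). IDI1 was the member whose probe sets were called in opposite directions with mix 1.

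**Figure D2:**
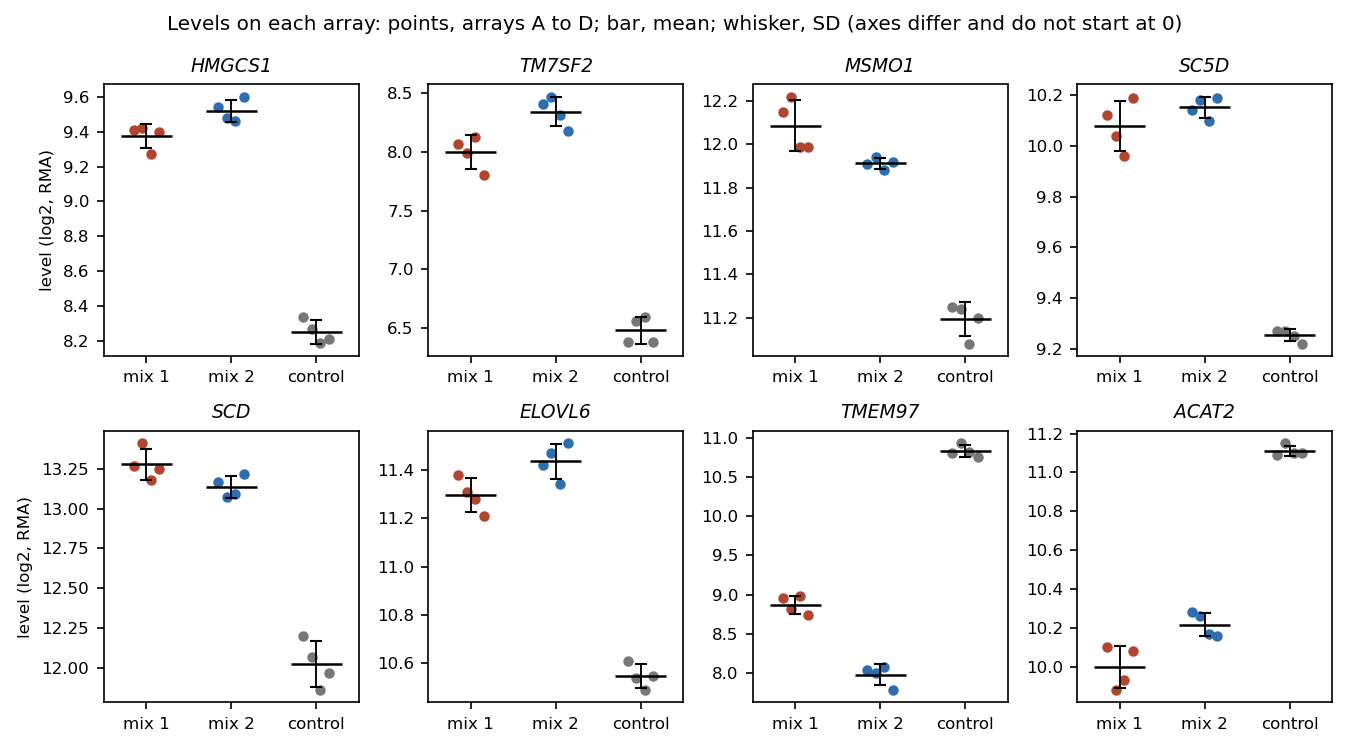
Log2 level (vertical axes, each panel on its own scale that does not start at 0) of 8 members on every array of mix 1, mix 2 and control siRNA, with the group mean as a bar and the SD as a whisker (n = 4). In the first 6 panels all knockdown arrays lie above all control arrays, and in the TMEM97 and ACAT2 panels they lie below.

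Of the squalene and lanosterol steps, SQLE, the monooxygenase that oxidises squalene, measured 8.79, 8.77, 8.58 and 8.83 with mix 1, 8.53, 8.53, 8.46 and 8.47 with mix 2, and 8.95, 9.0, 8.88 and 8.93 with control siRNA. The 3 groups did not overlap, and SQLE fell by 0.20 ± 0.06 with mix 1 (adjusted p = 0.01) and by 0.44 ± 0.06 with mix 2 (adjusted p = 1.2e-05). LSS, lanosterol synthase, measured 9.80, 9.85, 9.91 and 9.80 with mix 1, 9.85, 9.88, 9.84 and 9.71 with mix 2, and 9.41, 9.38, 9.28 and 9.26 with control siRNA. It was higher on all knockdown arrays, by 0.51 ± 0.06 with mix 1 (adjusted p = 2.11e-06) and 0.49 ± 0.06 with mix 2 (adjusted p = 3.01e-06). Here too neighbouring enzymes differed in direction.

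The 7 tested enzymes that convert lanosterol to cholesterol held the most increases among the cholesterol steps. With mix 1, 5 rose and 1 fell (71.4% and 14.3%, against 34.8% and 32.3% of all genes). With mix 2, 4 rose and 0 fell (57.1% higher, against 36.7%). Their median differences were 0.35 and 0.72. TM7SF2, a sterol reductase that shares its step with the lamin B receptor, measured 8.07, 7.99, 8.13 and 7.80 with mix 1, 8.41, 8.47, 8.32 and 8.18 with mix 2, and 6.38, 6.56, 6.59 and 6.38 with control siRNA. The groups were fully apart. TM7SF2 rose by 1.52 ± 0.09 with mix 1 (2.87-fold, adjusted p = 7.8e-10) and by 1.87 ± 0.09 with mix 2 (3.65-fold, adjusted p = 7e-11). Each was the largest increase among the members in its comparison. With mix 1 its 95% interval (1.34 to 1.70) overlapped that of SCD (1.09 to 1.42). TM7SF2 had a single probe set, of the kind that may bind related transcripts. MSMO1, the methylsterol oxidase, measured 12.15, 12.22, 11.99 and 11.99 with mix 1, 11.91, 11.94, 11.88 and 11.92 with mix 2, and 11.25, 11.24, 11.08 and 11.20 with control siRNA. It was higher on all knockdown arrays, by 0.90 ± 0.06 with mix 1 (adjusted p = 1.15e-08) and 0.72 ± 0.06 with mix 2 (adjusted p = 1.18e-07). SC5D, the sterol desaturase, measured 10.12, 10.04, 9.96 and 10.19 with mix 1, 10.14, 10.18, 10.10 and 10.19 with mix 2, and 9.27, 9.27, 9.25 and 9.22 with control siRNA. Its control arrays spanned a narrow range well below the knockdown arrays, and it rose by 0.82 ± 0.06 (adjusted p = 7.62e-09) and 0.90 ± 0.06 (adjusted p = 2.57e-09) with mix 1 and mix 2.

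NSDHL and HSD17B7 work with MSMO1 in removing methyl groups from the sterol ring, and their values depended on the mix. NSDHL, the decarboxylating dehydrogenase, measured 8.94, 8.96, 9.20 and 9.0 with mix 1, 9.54, 9.53, 9.44 and 9.41 with mix 2, and 9.48, 9.53, 9.42 and 9.32 with control siRNA. It was lower on the mix 1 arrays alone, at -0.41 ± 0.07 (adjusted p = 9.39e-05), against 0.04 ± 0.07 with mix 2 (adjusted p = 0.615). HSD17B7, the keto-reductase, measured 9.85, 9.85, 9.84 and 9.90 with mix 1, 10.62, 10.62, 10.44 and 10.46 with mix 2, and 9.70, 9.68, 9.64 and 9.73 with control siRNA. The 3 groups did not overlap. HSD17B7 rose by 0.17 ± 0.06 with mix 1 (adjusted p = 0.0147) and by 0.85 ± 0.06 with mix 2 (adjusted p = 4.76e-09). The mix 1 call was lost when arrays were centred on their medians (0.14, adjusted p = 0.0518, the highest over its alternatives, from 0.00797).

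EBP, the sterol isomerase, ranged over 9.19 to 9.51 with mix 1, 9.10 to 9.43 with mix 2 and 9.37 to 9.59 with control siRNA. Its differences of -0.17 ± 0.09 with mix 1 (adjusted p = 0.104) and -0.17 ± 0.09 with mix 2 (adjusted p = 0.0977) were not called. Without mix 1 array C the mix 1 difference was -0.23 and passed (adjusted p = 0.0333, in a range of 0.0182 to 0.266). EBP also passed under both mixes after centring (adjusted p = 0.0426 and 0.0466) and with its next brightest probe set in place of the brightest (-0.23 for each, adjusted p = 0.0182 and 0.0166). DHCR7, the reductase that completes cholesterol, measured 9.13, 9.39, 9.11 and 8.85 with mix 1, 8.88, 8.93, 9.01 and 8.74 with mix 2, and 8.89, 8.93, 8.58 and 8.69 with control siRNA. Arrays of the groups overlapped. The difference was 0.35 ± 0.11 with mix 1 (adjusted p = 0.0105) and 0.12 ± 0.11 with mix 2 (adjusted p = 0.358). With the mean of the DHCR7 probe sets, mix 2 passed at 0.19 (adjusted p = 0.0356, in a range to 0.702).

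Of the 7 genes for SREBP factors and their control, 6 rose and 0 fell with mix 1 (85.7% higher, against 34.8% of all genes). With mix 2, 2 rose and 2 fell (28.6% each, against 36.7% and 31.9%), near the background. SREBF1, which encodes the SREBP forms most tied to fatty acid synthesis, measured 9.47, 9.62, 9.65 and 9.37 with mix 1, 9.78, 9.77, 9.76 and 9.51 with mix 2, and 9.04, 9.02, 8.92 and 8.79 with control siRNA. It was higher on all knockdown arrays, by 0.59 ± 0.08 with mix 1 (adjusted p = 2.02e-05) and 0.76 ± 0.08 with mix 2 (adjusted p = 1.2e-06). SREBF2, which encodes the form most tied to cholesterol synthesis, measured 8.56, 8.62, 8.46 and 8.34 with mix 1, 7.89, 7.96, 7.90 and 7.84 with mix 2, and 7.83, 7.96, 7.65 and 7.64 with control siRNA. Only its mix 1 arrays stood apart, by 0.73 ± 0.08 over control (adjusted p = 1.3e-06). Mix 2 differed by 0.13 ± 0.08 (adjusted p = 0.176), which passed without control array B (0.19, adjusted p = 0.0432, in a range to 0.408). The next brightest SREBF2 probe set gave 0.25 ± 0.08 with mix 1 and 0.29 ± 0.08 with mix 2, and the dimmest gave 0.13 ± 0.08 and -0.18 ± 0.08. The difference between the mixes for SREBF2 was thus not the same on every probe set.

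The retention factors INSIG1 and INSIG2 differed between the mixes. INSIG1, itself a target gene of SREBPs, measured 10.47, 10.50, 10.19 and 10.43 with mix 1, 11.08, 10.89, 10.99 and 11.13 with mix 2, and 10.22, 10.02, 9.87 and 10.00 with control siRNA. The mix 2 arrays lay above all others, at 1.00 ± 0.09 over control (1.99-fold, adjusted p = 9.51e-08), and the mix 1 arrays overlapped control at array C, with a difference of 0.37 ± 0.09 (adjusted p = 0.00162). All 3 tested INSIG1 probe sets passed in the same direction in both comparisons, with 0.37, 0.51 and 0.62 for mix 1 and 1.00, 1.08 and 0.82 for mix 2. INSIG2 measured 9.68, 9.44, 9.60 and 9.75 with mix 1, 8.98, 9.10, 9.12 and 9.02 with mix 2, and 9.25, 9.24, 9.37 and 9.45 with control siRNA. It rose with mix 1 by 0.29 ± 0.07 (adjusted p = 0.00287), with overlap with control, and fell with mix 2 by 0.27 ± 0.07 (adjusted p = 0.0043), without overlap. SCAP, the escort of SREBPs, ranged over 9.14 to 9.33, 8.99 to 9.36 and 9.23 to 9.33 with mix 1, mix 2 and control siRNA and was not called. The 95% intervals of its differences were -0.25 to 0.08 and -0.24 to 0.09.

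The genes of the SREBP-cutting proteases showed the widest gaps between the mixes. MBTPS1, the protease of the first cut, measured 10.54, 10.63, 10.46 and 10.32 with mix 1, 9.59, 9.57, 9.55 and 9.47 with mix 2, and 9.46, 9.56, 9.38 and 9.29 with control siRNA. Its mix 1 arrays were apart from all others, and it rose by 1.07 ± 0.07 with mix 1 (2.09-fold, adjusted p = 8.67e-09), against 0.12 ± 0.07 with mix 2 (adjusted p = 0.162). With the mean of both MBTPS1 probe sets the mix 2 difference was 0.16 and passed (adjusted p = 0.0264, in a range to 0.402). MBTPS2, the membrane-embedded protease of the following cut, measured 10.26, 10.13, 10.32 and 10.26 with mix 1, 7.41, 7.31, 7.27 and 7.10 with mix 2, and 9.92, 9.96, 10.07 and 10.05 with control siRNA. With mix 2 it stood at 15.1% of control, a difference of -2.73 ± 0.07 (adjusted p = 2.5e-13), and with mix 1 it rose by 0.24 ± 0.07 (adjusted p = 0.00722). A single MBTPS2 probe set was tested, and the others that name it alone were below the filter. Whether an siRNA of mix 2 matches this transcript was not tested.

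**Figure D3:**
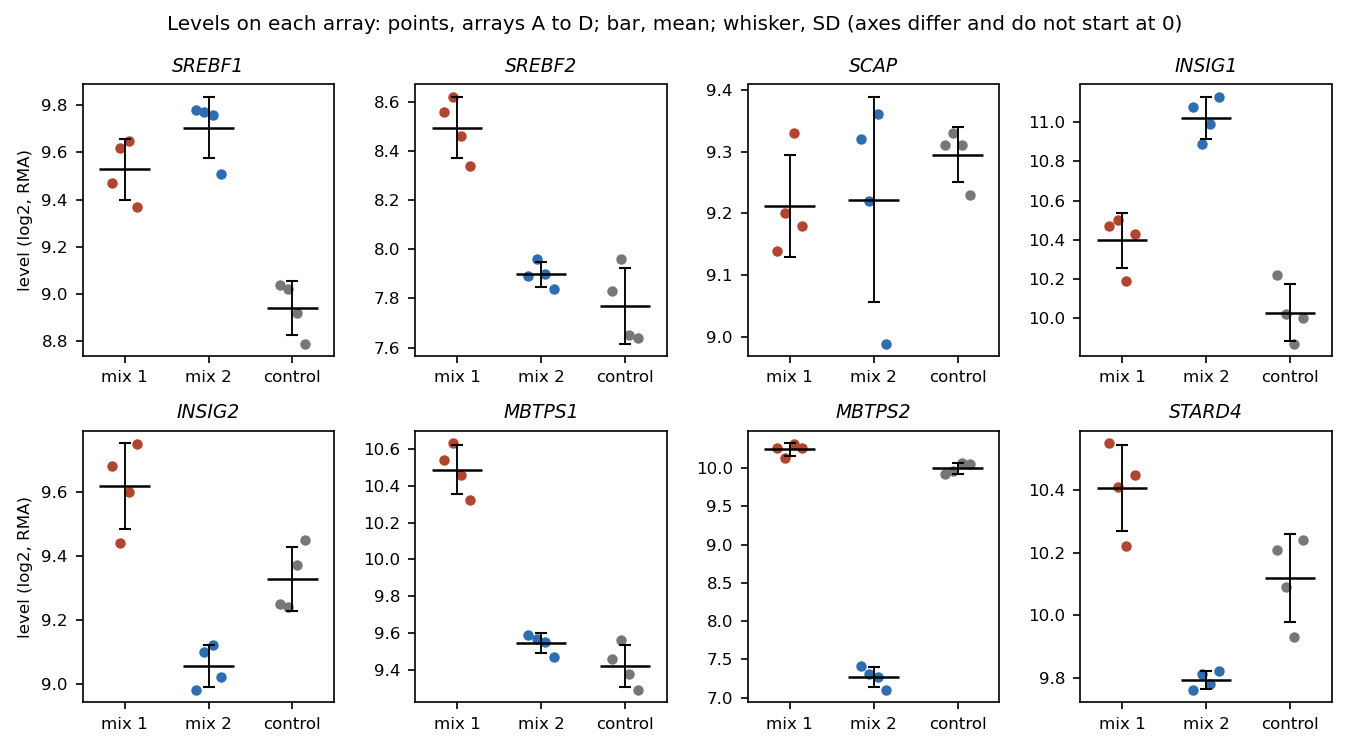
Log2 level (vertical axes, each panel on its own scale that does not start at 0) of SREBP factors, their regulators and STARD4 on every array of mix 1, mix 2 and control siRNA, with the group mean as a bar and the SD as a whisker (n = 4). MBTPS2 is near 7 with mix 2 and near 10 in the other groups, and MBTPS1 and SREBF2 are raised on the mix 1 arrays alone.

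Of the sterol transport genes, TMEM97, which encodes a sterol-binding membrane protein of the endoplasmic reticulum, measured 8.95, 8.81, 8.98 and 8.74 with mix 1, 8.04, 8.0, 8.08 and 7.78 with mix 2, and 10.81, 10.93, 10.82 and 10.75 with control siRNA. The 3 groups were fully apart. TMEM97 fell by 1.96 ± 0.08 with mix 1, to 25.7% of control (adjusted p = 1.81e-11), and by 2.85 ± 0.08 with mix 2, to 13.8% (adjusted p = 3.53e-13), the largest decrease among the members with mix 1. With mix 2 its interval (-3.02 to -2.69) overlapped that of MBTPS2 (-2.88 to -2.58), and with the mean of its probe sets TMEM97 was at -2.49, a smaller difference than that of MBTPS2. Its 4 probe sets all fell, with differences of -1.17 to -1.98 with mix 1 and -1.54 to -2.87 with mix 2. STARD4, a soluble sterol carrier, measured 10.55, 10.41, 10.22 and 10.45 with mix 1, 9.76, 9.81, 9.78 and 9.82 with mix 2, and 10.21, 10.09, 9.93 and 10.24 with control siRNA. It rose by 0.29 ± 0.08 with mix 1 (adjusted p = 0.00463), where arrays overlapped control, and fell by 0.32 ± 0.08 with mix 2 (adjusted p = 0.00199), where they did not.

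Fatty acid enzymes rose or were not called. Of the 6 tested, 4 rose with mix 1 and 5 with mix 2 (66.7% and 83.3%, against 34.8% and 36.7% of all genes), and 0 fell in either comparison. ACLY, which makes cytosolic acetyl-CoA from citrate, measured 12.40, 12.52, 12.28 and 12.24 with mix 1, 12.45, 12.58, 12.47 and 12.54 with mix 2, and 12.32, 12.36, 12.13 and 12.15 with control siRNA. The difference was 0.12 ± 0.07 with mix 1 (adjusted p = 0.173) and 0.27 ± 0.07 with mix 2 (adjusted p = 0.00491), where the arrays were apart. ACACA, the carboxylase that makes malonyl-CoA, measured 10.09, 10.27, 10.21 and 10.08 with mix 1, 10.42, 10.45, 10.40 and 10.21 with mix 2, and 9.98, 10.01, 9.93 and 9.88 with control siRNA. It rose by 0.21 ± 0.07 (adjusted p = 0.0117) and 0.42 ± 0.07 (adjusted p = 5.39e-05) with mix 1 and mix 2. FASN, the synthase that builds palmitate, ranged over 8.28 to 8.53 with mix 1, 8.50 to 8.58 with mix 2 and 8.25 to 8.73 with control siRNA and was not called. The 95% intervals were -0.30 to 0.10 and -0.15 to 0.25.

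The tested enzymes that modify finished fatty acids rose against control with both mixes. SCD, the desaturase that makes oleate, measured 13.27, 13.41, 13.18 and 13.25 with mix 1, 13.17, 13.07, 13.09 and 13.22 with mix 2, and 12.20, 12.07, 11.86 and 11.97 with control siRNA. The gap to control was wider than any spread within a group: 1.25 ± 0.08 with mix 1 (238% of control, adjusted p = 1.77e-09) and 1.11 ± 0.08 with mix 2 (216% of control, adjusted p = 5.83e-09). ELOVL6, which lengthens palmitate, measured 11.38, 11.31, 11.28 and 11.21 with mix 1, 11.42, 11.47, 11.34 and 11.51 with mix 2, and 10.61, 10.54, 10.49 and 10.55 with control siRNA. It rose by 0.75 ± 0.06 (adjusted p = 2.54e-08) and 0.89 ± 0.06 (adjusted p = 3.38e-09). Its dimmest tested probe set differed from the others with 1.49 ± 0.09 for mix 1 and 0.17 ± 0.09 for mix 2. FADS2, the desaturase that opens the path to long polyunsaturated fatty acids, measured 8.51, 8.63, 8.89 and 8.71 with mix 1, 8.66, 8.62, 8.73 and 8.45 with mix 2, and 8.32, 8.50, 8.35 and 8.32 with control siRNA. It rose by 0.31 ± 0.08 with mix 1 (adjusted p = 0.00419) and by 0.24 ± 0.08 with mix 2 (adjusted p = 0.0189). The mix 2 call was lost without mix 2 array C (0.20, adjusted p = 0.0614, in a range from 0.00607).

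Several probe sets were tested for 17 members and 1 for the other 14. The single tested probe sets of ACAT2, PMVK, MVD, TM7SF2, HSD17B7, SC5D and FADS2 were of the kind that may bind related transcripts. So were all tested probe sets of DHCR7, ACLY, FASN and SCD. With mix 1, the probe sets of 14 of the 17 gave the same call. Those of EBP and SREBF2 gave a call on part of them, and those of IDI1 gave opposite calls. With mix 2, 11 gave the same call and 6 gave a call on part of them, which were ACACA, DHCR7, EBP, ELOVL6, SREBF1 and SREBF2. Averaging the probe sets of a gene kept the calls but lowered the size for SREBF2 with mix 1, to 0.37, and with mix 2 for SREBF1, to 0.48, and for ACACA, to 0.24.

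**Figure D4:**
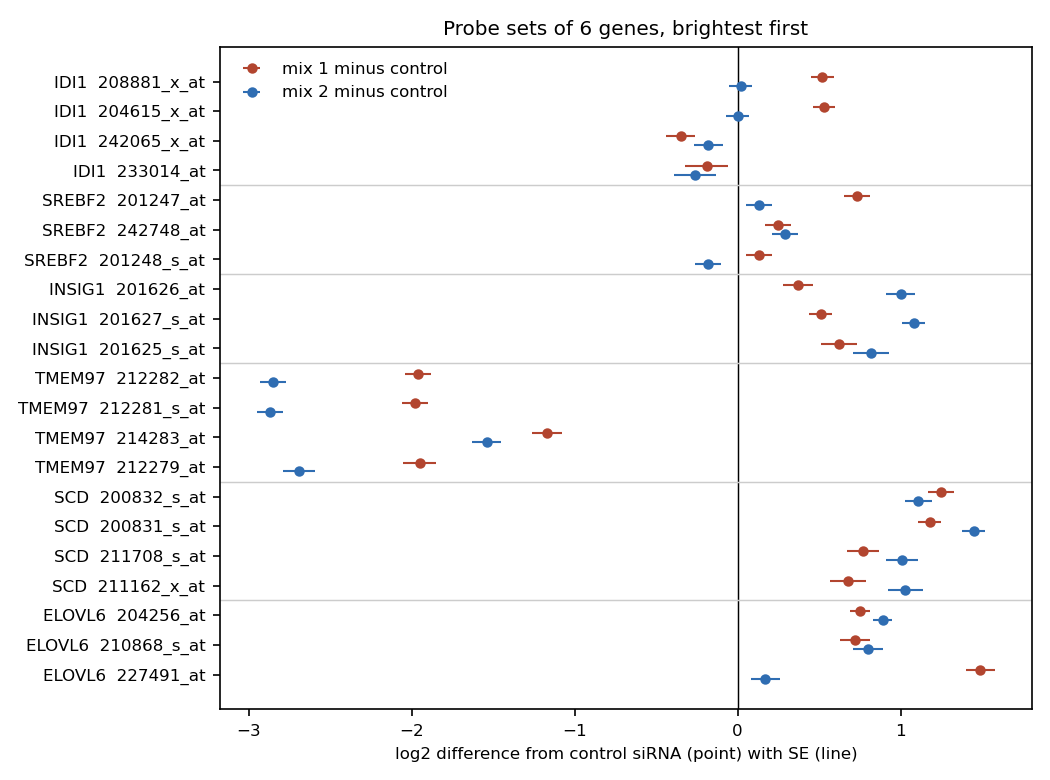
Log2 difference from control siRNA (point) with its SE (line) for every tested probe set of 6 members, brightest first within a gene, with mix 1 above mix 2. TMEM97 and INSIG1 probe sets lie on 1 side of 0 throughout, and IDI1 probe sets lie on both sides with mix 1.

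Compared directly, mix 2 against mix 1, 8 members were higher and 9 lower, or 25.8% and 29%, and 28.7% and 25% of all genes passed in those directions. The median difference was 0.00 for members and 0.02 for all genes. No overlap between the mixes was seen for 15 members (48.4%, against 46.1% of all genes), and 1 member differed by at least 2-fold (3.23%, against 6.25%). The share of members that differed between the mixes was thus near the background. That 1 member was MBTPS2, at 7.27 ± 0.13 with mix 2 and 10.24 ± 0.08 with mix 1 (SD, n = 4 each), a difference of -2.97 ± 0.07 (adjusted p = 1.67e-12). MBTPS1 followed with -0.94 ± 0.07 (adjusted p = 8.62e-08) and TMEM97 with -0.90 ± 0.08 (adjusted p = 2.02e-07). STARD4 came next with -0.62 ± 0.08 (adjusted p = 1.21e-05), SREBF2 with -0.60 ± 0.08 (adjusted p = 1.82e-05) and INSIG2 with -0.56 ± 0.07 (adjusted p = 1.48e-05). On the other side were HSD17B7 at 0.68 ± 0.06 (adjusted p = 1.62e-07), and INSIG1 at 0.62 ± 0.09 (adjusted p = 2.67e-05). Smaller differences of that sign were those of NSDHL at 0.46 ± 0.07 (adjusted p = 6.38e-05), TM7SF2 at 0.35 ± 0.09 (adjusted p = 0.00319) and ACAT2 at 0.22 ± 0.06 (adjusted p = 0.00702). Of the 7 genes for SREBP factors and their control, 1 was higher and 4 were lower with mix 2 than with mix 1, and the median difference was -0.56.

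SQLE was lower with mix 2 than with mix 1 (-0.24 ± 0.06, adjusted p = 0.00342), and so was IDI1 (-0.50 ± 0.07, adjusted p = 2.07e-05; -0.07, adjusted p = 0.698, without probe sets that may bind related transcripts). The remaining calls between the mixes were small, and each was lost under several alternatives, both with single arrays left out and with all arrays kept. HMGCS1 differed by 0.14 ± 0.06 (adjusted p = 0.0496), a call lost under 17 of 20 alternatives, among them the omission of any array except mix 2 array C, with adjusted p from 0.0329 to 0.864. PMVK differed by 0.22 ± 0.08 (adjusted p = 0.0289) and lost the call without mix 1 array A or B or mix 2 array A or C (0.0566, 0.0934, 0.0653 and 0.0992, in a range from 0.00534). It was also lost in a fit of the mixes alone (0.0518). MSMO1 differed by -0.18 ± 0.06 (adjusted p = 0.033) and lost it without the same arrays (0.0879, 0.108, 0.0627 and 0.0761, in a range from 0.00859). It was also lost with no filter (0.0619), after centring on array medians (0.0857) and in a fit of the mixes alone (0.059). ACACA differed by 0.21 ± 0.07 (adjusted p = 0.0175) and lost it without mix 1 array A or D or mix 2 array B (0.0528, 0.0529 and 0.0549, in a range from 0.00236). With the mean of its probe sets, the ACACA difference was 0.04 (adjusted p = 0.606). In the other direction, ELOVL6 (0.14, adjusted p = 0.0544, in a range of 0.000123 to 0.147) passed without mix 1 array A (0.0361) or mix 2 array C (0.0317). DHCR7 (-0.23, adjusted p = 0.0885, in a range to 0.322) passed without mix 1 array D (0.017). SREBF1 (0.18, adjusted p = 0.092, in a range to 0.892) passed without mix 2 array D (0.0193). ACLY (0.15, adjusted p = 0.108, in a range of 0.0075 to 0.264) passed without mix 1 array B (0.0343).

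**Figure D5:**
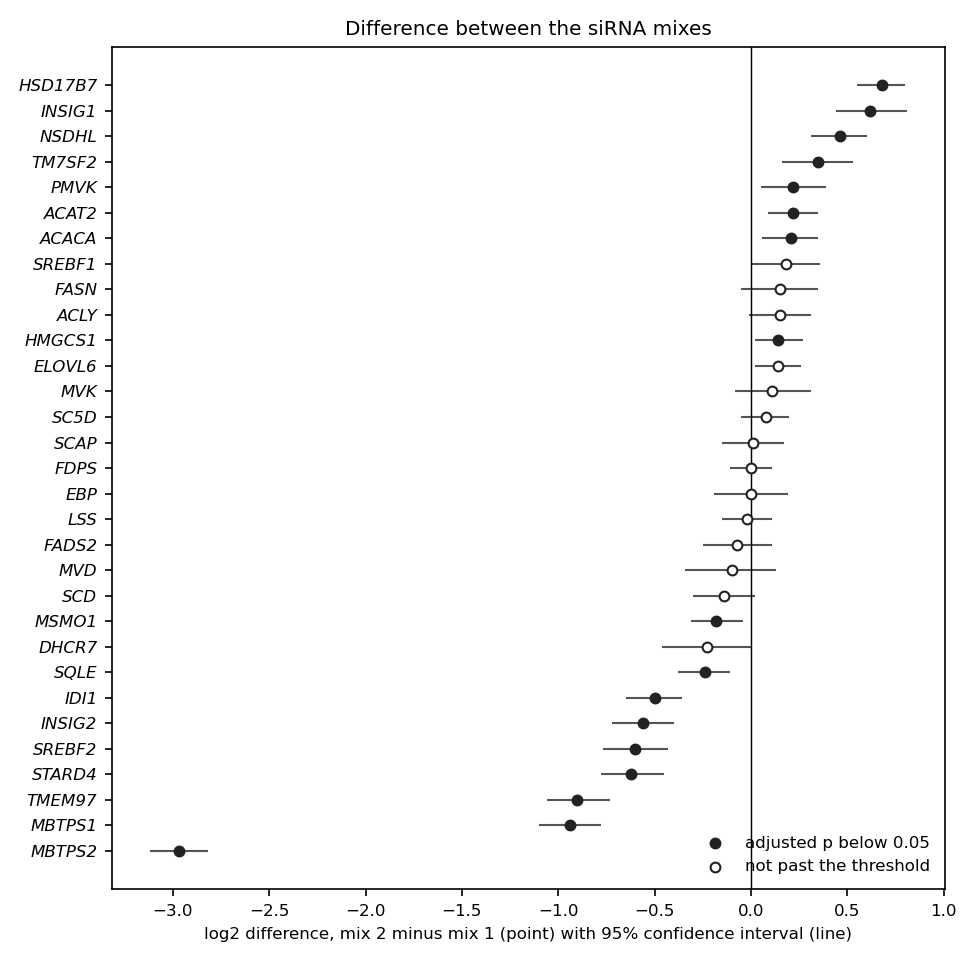
Log2 difference of mix 2 from mix 1 (horizontal axis) with its 95% confidence interval for the 31 members tested, filled where the adjusted p was below 0.05. MBTPS2 lies at -2.97, and all other members lie between -0.94 and 0.68.

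Genes of neighbouring lipid pathways were counted in the same fit. Of 16 tested genes of sterol efflux, esterification and LXR function, 12 rose and 3 fell with mix 1 (75% and 18.8%, against 34.8% and 32.3% of all genes). With mix 2, 11 rose and 4 fell (68.8% and 25%, against 36.7% and 31.9%). Median differences were 0.45 and 0.58. These all-gene shares apply to each list that follows. ABCG1, a sterol exporter, averaged 6.44 ± 0.20 with mix 1, 6.94 ± 0.18 with mix 2 and 4.93 ± 0.24 with control siRNA, where it was below the filter's level of 5.46. SOAT1, which esterifies cholesterol, averaged 9.56 ± 0.34, 9.55 ± 0.44 and 10.92 ± 0.22 in the same groups and differed by -1.36 ± 0.20 and -1.37 ± 0.20 (adjusted p = 2.67e-05 and 2.29e-05). Of 14 genes of the isoprenoid and prenylation branch, 4 rose and 7 fell with each mix (28.6% and 50%), with a median of -0.16 in both comparisons. GGPS1, which makes the geranylgeranyl donor, rose by 1.34 ± 0.08 (adjusted p = 1.58e-09) and 1.80 ± 0.08 (adjusted p = 5.21e-11). PDSS1, of ubiquinone side chain synthesis, differed by -2.21 ± 0.06 (adjusted p = 5.03e-13) and -2.45 ± 0.06 (adjusted p = 1.45e-13).

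Of 16 tested genes of fatty acid activation, elongation and carbon supply, 9 rose and 2 fell with mix 1 (56.2% and 12.5%, against 34.8% and 32.3% of all genes). With mix 2, 9 rose and 4 fell (56.2% and 25%, against 36.7% and 31.9%). ME1, an NADPH-producing malic enzyme, rose by 0.92 ± 0.05 (adjusted p = 4.04e-10) and 1.81 ± 0.05 (adjusted p = 3.62e-13). ELOVL5, an elongase of polyunsaturated fatty acids, differed by -0.36 ± 0.05 and -0.35 ± 0.05 (adjusted p = 2.26e-05 and 2.61e-05). Of 22 fatty acid oxidation genes, 15 rose and 4 fell with mix 1 (68.2% and 18.2%) and 16 rose and 3 fell with mix 2 (72.7% and 13.6%), with medians of 0.44 and 0.39. ETFB, an electron carrier of fatty acid oxidation, rose by 1.34 ± 0.09 and 1.64 ± 0.09 (adjusted p = 4.27e-09 and 3.91e-10). ACADM, the medium-chain acyl-CoA dehydrogenase, differed by -0.62 ± 0.15 and -0.81 ± 0.15 (adjusted p = 0.00224 and 0.000261). Of 18 glycerolipid and lipid droplet genes, 8 rose and 3 fell with mix 1 (44.4% and 16.7%) and 10 rose and 3 fell with mix 2 (55.6% and 16.7%). DGAT2, which makes triglyceride, rose by 1.03 ± 0.09 and 1.52 ± 0.09 (adjusted p = 1.07e-07 and 1.29e-09). AGPAT5, a lysophospholipid acyltransferase, differed by -1.19 ± 0.09 and -0.75 ± 0.09 (adjusted p = 1.3e-08 and 1.77e-06). Of 20 genes of SREBP degradation and AMPK control, 11 rose and 6 fell with mix 1 (55% and 30%) and 10 rose and 7 fell with mix 2 (50% and 35%). The shares that fell were near the background. MLXIP, a glucose-responsive transcription factor, rose by 1.19 ± 0.08 and 1.51 ± 0.08 (adjusted p = 2.9e-09 and 1.77e-10). PRKAG2, a regulatory subunit of AMPK, differed by -1.83 ± 0.08 and -0.48 ± 0.08 (adjusted p = 4.77e-11 and 7.15e-05).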

How the data were processed

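Expression was measured in 12 arrays, 4 for each of 3 siRNA groups, grouped by the transfection label. The authors deposited 1 table of log2 values, and the submitters' processing notes name RMA as the tool. Which software ran it, in what version and with which settings, is not given in the sources used here. RMA usually brings all arrays to a common distribution and thereby hides a change common to every gene. Gene symbols came from GEO's platform annotation, updated through the RefSeq gene table of GRCh38.p14. The 41091 probe sets with exactly 1 symbol named 19775 genes; those with a mean above the 40th percentile (5.46 log2) were kept. For each of the 13225 genes left, the brightest probe set on average was used.

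The 3 group means were fitted to all 12 arrays with limma 3.58.1 (R 4.3.3) and default eBayes, with 9 residual degrees of freedom; two-sided p-values were adjusted by Benjamini-Hochberg over all genes of a comparison, at a threshold of 0.05. The procedure was tested on simulated data. The members, the other gene lists and the rule for named genes (every member, YAP1, WWTR1 and, per other list, at most the highest and lowest gene past the threshold under both mixes) were chosen with earlier results of these data known. The rule for printed upstream sequences was the 3 largest differences per direction under both mixes, plus INSIG1, SREBF1 and SREBF2. A window was printed where the table held it and the gene was not on the chromosome left out of the motif search. ACAT2 and SQLE met the rule for size and are named only. The 50 bases after the start were searched but are not printed.

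The replicate letters are in the labels. Deviations from group means of same-letter arrays correlated at 0.37, 0.251, 0.409 and 0.34 for letters A to D between mix 1 and control. All were above 0.1, the rule by which a pairing there was taken from the values. Mix 1 array B still correlated most with control array A. The main fit used no pairing, which entered only as the replicate block among the alternatives. The correlations were 0.119, 0.0338, 0.0481 and 0.212 between mix 2 and control and 0.273, -0.0853, 0.202 and 0.191 between mix 2 and mix 1, which did not meet that rule. Alternatives were other filters, other choices of probe set, centring, another moderation, a fit of 2 groups, a fold threshold, a replicate block and the omission of each array. Arrays have no read depth; their number limits the precision. Array medians were compared between groups (exact two-sided permutation p = 0.343 for mix 1 and 0.371 for mix 2 against control, where 4 against 4 arrays allow 0.0286 at the lowest).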

Additional observations from a re-analysis of the deposited data

Results flagged for a closer look

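In 7 of the 93 groups of 4 arrays, 1 array's gap to the nearest other exceeded Dixon's 95% critical value for its group; chance alone gives about 1 in 20. For MVK, mix 1 array A was at 8.31 and the others at 8.50 to 8.51. For HMGCS1, mix 1 array C was at 9.27 and the others at 9.40 to 9.42, still above every control array. For HSD17B7, mix 1 array D was at 9.90 and the others at 9.84 to 9.85. Mix 2 array D was low for EBP, at 9.10 against 9.39 to 9.43, and for SREBF1, at 9.51 against 9.76 to 9.78. Control array B was high for ACAT2, at 11.15 against 11.09 to 11.10, and for FADS2, at 8.50 against 8.32 to 8.35.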

How the results depend on the processing

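Each result was recomputed under up to 21 alternatives, 12 of which left out 1 array. The results not named here or in the report kept their side of the threshold and, where called, their direction under the alternatives run. Among results called under at least 1 setting, 4 directions turned, all with the probe sets used. Uncalled differences near 0 also changed sign, such as IDI1 with mix 2 (0.02, and -0.26 without shared probe sets) and FASN with mix 2 (0.05, and -0.08 with averaged probe sets). IDI1 with mix 1 was -0.19 (adjusted p = 0.22) without shared probe sets, those that may bind related transcripts. Between the mixes, averaging each gene's probe sets gave -0.02 for HMGCS1 (adjusted p = 0.864), 0.18 for SCD (0.022) and -0.36 for ELOVL6 (0.000123); the probe sets of these genes differ, and the cause was not tested. Without shared probe sets, 20 members and 10357 genes were tested, which lowers the counts by construction. With mix 1, 12 of these members were higher and 5 lower, and with mix 2 the counts were 7 and 7. For mix 2 against mix 1 they were 3 and 8. The excess of higher over lower members with mix 1 remained. With mix 2 the excess in the main fit (14 and 7) was no longer seen, so it depended on shared probe sets. A call that also needed a 1.5-fold difference, stricter by construction, left 9 higher and 2 lower members with mix 1, 9 and 3 with mix 2, and 2 and 5 between the mixes. Over all genes it left 2363 higher and 2227 lower with mix 1, 2532 and 2309 with mix 2, and 1157 and 1221 between the mixes. With 1 array left out, 19 members were higher and 5 to 6 lower with mix 1, and 12 to 15 and 7 with mix 2. Between the mixes these counts were 6 to 8 and 8 to 10. The counts over all genes in these fits stayed within 1.5-fold of those in the main fit. With the replicate letters as a replicate block, 19 members were higher and 5 lower with mix 1, and 14 and 7 with mix 2. Between the mixes they were 11 and 10. Over all 13225 genes the block gave 4762 and 4432 with mix 1, 5020 and 4360 with mix 2, and 4050 and 3520 between the mixes. The block changed no member's call against control. Between the mixes DHCR7, SREBF1, ACLY and ELOVL6 passed (adjusted p = 0.0321, 0.0192, 0.0454 and 0.0489). On arrays, signal near background compresses differences, which limits MVD, the dimmest member here.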
